A study of Mus musculus with 2 samples.

Results

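The cells described here are outlines of a mouse skin section that held Csf3r, which encodes the receptor of granulocyte colony-stimulating factor (G-CSF), and no transcript of 4 macrophage marker genes. They were chosen by measured values: at least 20 transcripts, at least 2 of Csf3r, and 0 of Ms4a7, Pf4, F13a1 and Folr2. Less than 8% of the transcripts came from the epithelial genes Trim29, Dsc3, Serpinb5 and S100a14, and less than 30% from the muscle genes Ttn, Pvalb, Actn3, Pygm and Des. They are called Csf3r+Mac- cells below, where Mac stands for the 4 macrophage genes. The rule found 90 of 59588 cells, of which 89 lay among the 44282 cells of the SspA+HDM section and 1 among the 15306 cells of the mock section.

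Xenium In Situ decodes single RNA molecules of a chosen panel at their place in a tissue section, here 379 genes in a 5-µm section of formalin-fixed, paraffin-embedded skin. Both groups were whole dorsal skin of C57BL/6 mice, shaved and depilated, at day 7. The mock skin had received PBS on its surface, and the other skin SspA together with HDM, agents given here as the labels name them. There was 1 section per group, each made of 2 strips of skin, so differences below lack a check by replicates and were not tested, and neither cells nor strips are replicates. The number of animals behind a section is not given in the sources used here.

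Granulocytes leave the blood through the walls of small vessels, drawn by chemokines that bind CXCR2, and neutrophils are usually the first of them to enter damaged skin. G-CSF, the ligand of the Csf3r protein, drives their production and prolongs their life, and stored proteases such as those of Mmp8 and Mmp9 help them to break down matrix. Csf3r is also carried by monocytes, so the receptor alone does not define a granulocyte.

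Every interval below is a 95% exact interval that covers counting error only. Levels are in CPM, the standard scaling of counts: the transcripts of a gene, summed over the cells of a set, relative to all panel transcripts of those cells. A gene is called higher or lower where the ratio of CPM was at least 2-fold and at least 1 of both sets held 30 transcripts. The sections held 2461475 (mock) and 8124205 (SspA+HDM) gene transcripts at a quality score of 20 or more, of which 94.5% and 97.6% lay in outlines. The median cell held 108 and 127. The files of both sections shared 0 outline identifiers.

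Csf3r+Mac- cells made up 0.201% of the SspA+HDM cells (0.161 to 0.247%), at 5.96 per mm of strip. Its strips held 39 of 20365 cells (0.192%) and 50 of 23916 cells (0.209%), and differed by less than these intervals. The mock section held 1 such cell, 0.00653% (0.000165 to 0.0364%), at 0.0746 per mm. Cells with at least 2 Csf3r transcripts and at least 1 transcript of the macrophage genes, under the same other limits, are called Csf3r+Mac+. There were 612 in SspA+HDM, 1.38% of cells and 41.0 per mm, and 39 in mock, 0.255% and 2.91 per mm. Csf3r+Mac- cells were therefore 12.7% of all cells with 2 or more Csf3r transcripts inside the limits in SspA+HDM and 2.5% in mock, where 1 of 40 cells stands for the share. Cells with at least 2 macrophage transcripts and no Csf3r, called Csf3r-Mac+, made up 12.4% of SspA+HDM and 14.3% of mock cells.

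Outlines of Csf3r+Mac- cells held fewer transcripts and covered less area than those with macrophage genes, whose counts defined these sets. Total transcripts ran from 20 to 306 with a median of 70, against medians of 106 in Csf3r-Mac+ and 128 in Csf3r+Mac+ cells. Cells of the same limits with neither Csf3r nor macrophage transcripts had a median of 79. The part of the rule in these differences was not tested. The outline area of Csf3r+Mac- cells ran from 29.6 to 528 µm² with a median of 105 µm², against 151 µm² in Csf3r-Mac+ and 157 µm² in Csf3r+Mac+ cells. It was larger than in neighbouring cells (within 20 µm, 87.4 µm²) and in all other cells of the section (90.3 µm²). Csf3r counts ran from 2 to 11 with a median of 3, with 41 cells at exactly 2, 21 at 3, 12 at 4 and 15 at 5 or more.

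The limits of the rule cut through ranges of values that went on outside it. Just outside, 241 cells held exactly 1 Csf3r transcript and no macrophage transcript, and their Cxcr2 level was 1961 CPM, against 14228 CPM in Csf3r+Mac- cells. Another 76 cells held 2 or more Csf3r transcripts and a single macrophage transcript, with Cxcr2 at 7033 CPM and Mmp9 at 8250 CPM. Inside the rule, the 41 cells with exactly 2 Csf3r transcripts stood at 5417 CPM of Cxcr2. Epithelial genes kept out 14 cells, muscle genes 2 and the total of 20 transcripts another 2. These values describe the rule and were given no test.

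The name granulocyte-like was borne out only in part. Of the 3 genes given as its markers, Csf3r was set by the rule. Cxcr2, the receptor for neutrophil chemokines, was found in 45 of 89 cells (50.6%, 39.8 to 61.3%), with 1 to 7 transcripts in each of them. Mmp8, the neutrophil collagenase, was found in 8 of 89 (8.99%, 3.96 to 16.9%), with 1 transcript in each. Mpo and Ctsg, whose proteins fill the primary granules of immature neutrophils, and Fcnb, a ficolin gene of bone marrow myeloid cells, stood at 0. Prg2, an eosinophil granule gene, and Ltc4s, a leukotriene synthase gene of mast cells and eosinophils, also stood at 0, while the mast cell protease gene Cpa3 had 20 transcripts. A count of 0 allows up to 3 transcripts. Many cells also held genes of monocytes, described below, so the set is called by its rule.

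The genes with the highest CPM in Csf3r+Mac- cells included those of matrix, fat and leukocytes. The matrix gene Bgn led at 48645 CPM, followed by Car3, a carbonic anhydrase gene of fat and muscle, at 40786, the matrix gene Lum at 39295, the membrane-binding annexin gene Anxa2 at 38482 and Csf3r at 38347. Hp, which encodes the haemoglobin-binding protein haptoglobin, stood at 27371 and the lysosomal protease gene Ctss at 22900. The caveolin gene Cav1, the matrix gene Dpt and S100a4 stood at 20461 each, Nbl1 at 18293 and the leukocyte lysosome gene Laptm5 at 18022. Car3 was uneven, with 87 of its 301 transcripts in 1 cell and detection in 30 of 89 cells, whereas Bgn was detected in 80 of 89 (89.9%).

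The comparison with neighbouring cells asks which genes an outline held beyond those of its surroundings. Neighbours were the 814 other cells with a centroid within 20 µm, at a median of 83 transcripts. Of 184 genes compared, 15 were at least 2-fold higher in Csf3r+Mac- cells (8.15%) and 37 lower (20.1%). The rule picked cells by Csf3r, so these shares describe the chosen cells. The 15 were Cxcr2, Cd300lf, Mmp9, Il1r2, Pglyrp1, Stfa2l1, Alox5ap, Lst1, Cybb, Ncf4, Rac2, Angpt2, Mpeg1, Bst1 and Clec4a3. Stfa2l1 encodes a cystatin-family inhibitor and Angpt2 an endothelial growth factor. Bgn had a ratio of 1.10 (0.987 to 1.23), Lum 1.09 (0.960 to 1.23) and the vessel gene Vwf 1.29 (1.03 to 1.61).

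Cxcr2 had the highest of these ratios. It stood at 14228 CPM (11637 to 17223) in Csf3r+Mac- cells and 717 CPM in neighbours, a ratio of 19.9 (14.3 to 27.8). Cd300lf, which encodes an inhibitory receptor of myeloid cells, was 9.20-fold higher (6.54 to 12.9), from 66 transcripts. Mmp9, the gelatinase stored by neutrophils, was 7.75-fold higher (5.57 to 10.7), and Il1r2, the decoy receptor that takes up interleukin-1, 5.55-fold higher (4.29 to 7.13). Alox5ap, which presents arachidonic acid to the enzyme that starts leukotriene synthesis, was 3.10-fold higher (2.53 to 3.78). The oxidase genes Ncf4 and Cybb were both 2.63-fold higher, and Rac2, a small GTPase of blood cells that acts with that oxidase, was 2.36-fold higher (1.78 to 3.09). Pglyrp1, a granule protein gene that binds bacterial cell walls, was 4.89-fold higher (2.93 to 7.96). The monocyte and macrophage genes Mpeg1 and Clec4a3 were 2.19-fold and 2.004-fold higher.

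The lowest genes against neighbours were mostly epithelial, and the rule itself limited epithelial genes. Areg, Scin, Calm5 and Ivl had 1 transcript each and Ldhb and Prom2 2 each in Csf3r+Mac- cells. For Ldhb, with 171 transcripts in neighbours, the ratio was 0.130 (0.0157 to 0.479).

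Against Csf3r-Mac+ cells, 63 of 266 genes were higher (23.7%) and 39 lower (14.7%), and these shares too describe cells chosen by their counts. Cxcr2 stood at 253 CPM there, so the ratio was 56.3 (43.8 to 72.1). Mmp9 was 15.3-fold higher (11.6 to 19.9), Pglyrp1 15.6-fold (9.80 to 23.9), Stfa2l1 13.1-fold (9.05 to 18.4), Cstdc4 11.7-fold (8.04 to 16.6) and Cd8a 10.7-fold (4.14 to 23.4, from 7 transcripts). Mrgpra2a, a receptor gene of neutrophils and sensory neurons, was 17.8-fold higher (6.08 to 43.2), from 6 transcripts. Mmp8 was 8.83-fold higher (3.69 to 18.2) and Ifitm6 7.98-fold (4.72 to 12.8), from 8 and 19 transcripts. Il1r2 was 7.70-fold higher (6.18 to 9.50) and Cd300lf 7.65-fold (5.86 to 9.84). The phospholipase-like gene Plbd1, found in granulocytes, was 4.15-fold higher (3.46 to 4.95). The ratios of the monocyte genes were smaller, at 1.35 for Ms4a6c (1.05 to 1.72), 1.46 for Clec4a3 (1.06 to 1.96) and 1.69 for Mpeg1 (1.28 to 2.19).

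Among the lowest genes of that comparison, the muscle genes Myoz2, Hrc and Myoz1, the bicarbonate carrier gene Slc4a4 and the lymphatic vessel gene Mmrn1 each had 1 transcript in Csf3r+Mac- cells. For Myoz2 the ratio was 0.0734 (0.00186 to 0.410). Csf3r+Mac- cells also lay farther from muscle than Csf3r-Mac+ cells, with medians of 161 and 74.0 µm.

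**Figure D1:**
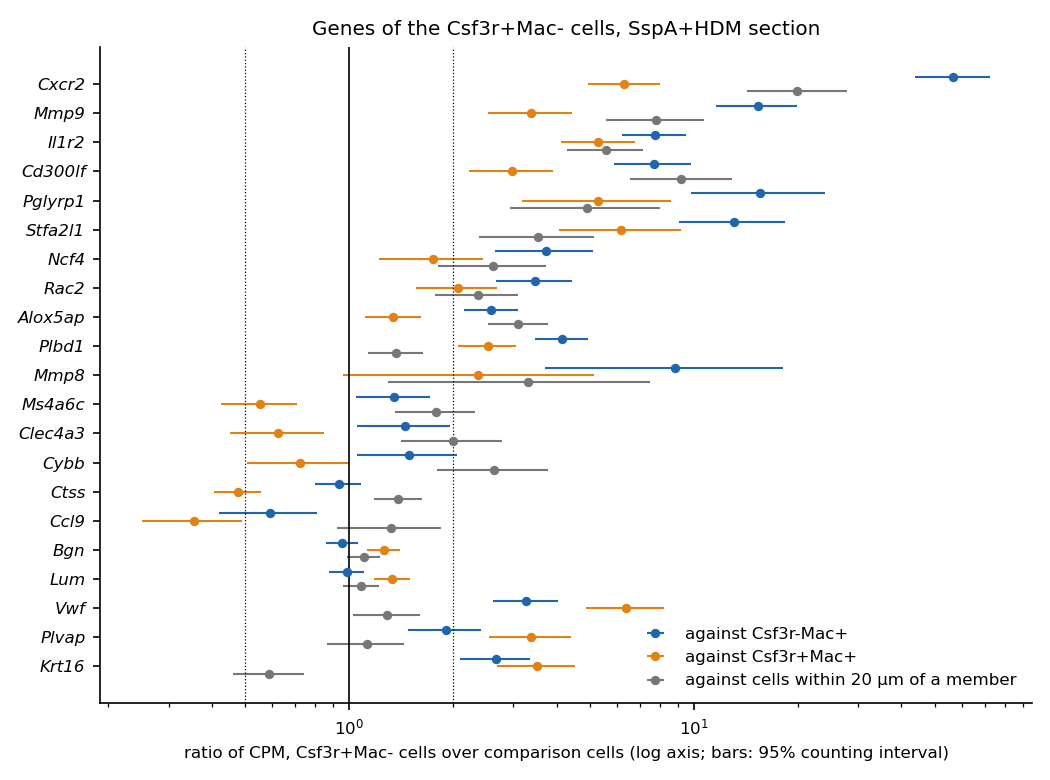
Ratio of CPM in Csf3r+Mac- cells over Csf3r-Mac+ cells (blue), Csf3r+Mac+ cells (orange) and cells within 20 µm (grey) on a log axis, with 95% counting intervals; dotted lines mark 2-fold. Cxcr2, Mmp9, Il1r2 and Cd300lf lie above 2-fold in all 3 comparisons, while Bgn and Lum lie near 1 and Ms4a6c and Clec4a3 fall on both sides of 1.

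Csf3r+Mac+ cells met the same Csf3r limit, so that comparison shows what went with the absence of the macrophage genes. Of 162 genes, 55 were higher (34%) and 31 lower (19.1%) in Csf3r+Mac- cells, with genes of several tissues among the higher ones. Cxcr2 was 6.29-fold higher (4.93 to 7.997; 2260 CPM in Csf3r+Mac+ cells), Il1r2 5.29-fold (4.12 to 6.75), Pglyrp1 5.28-fold (3.17 to 8.57), Mmp9 3.37-fold (2.53 to 4.44) and Cd300lf 2.97-fold (2.24 to 3.90). The epithelial genes Epcam and Col17a1 were 9.22-fold (5.74 to 14.7) and 5.02-fold (3.197 to 7.71) higher. Cstdc4 and Stfa2l1, also on the keratinocyte list, were 7.24-fold (4.66 to 11.1) and 6.15-fold (4.06 to 9.19) higher. Endothelial genes were higher too, with Vwf at 6.34-fold (4.86 to 8.22), Podxl at 5.31-fold (3.72 to 7.48), Tie1 at 4.96-fold (3.33 to 7.26) and Ctla2a at 4.02-fold (2.85 to 5.58). Against neighbours Vwf, Podxl, Tie1 and Ctla2a had ratios of 1.13 to 1.29 and Epcam 0.866 (0.592 to 1.23), below the 2-fold size. Ctss was 2.10-fold lower and the chemokine gene Ccl9 2.81-fold lower. Ccl12, a monocyte-attracting chemokine gene, had 2 transcripts and a ratio of 0.138 (0.0166 to 0.505), and Sypl2, Myoz1, Myoz2, Hrc and Slc4a4 had 1 each.

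Against all 44193 other cells of the section, 124 of 362 genes were higher (34.3%) and 58 lower (16%). Mmp9 was 38.3-fold higher (29.5 to 49.0) and Cd300lf 33.5-fold (25.8 to 42.8), whereas Cxcr2 was 15.9-fold (13.02 to 19.3). Of the 7255 Cxcr2 transcripts of the section, 71.5% lay in epithelial cells (at least 8% of transcripts from the 4 epithelial genes) and 105 in Csf3r+Mac- cells. Il1r2 was 9.44-fold higher (7.63 to 11.6), Rac2 9.23-fold, Alox5ap 9.14-fold, Bst1, an ectoenzyme gene of myeloid cells, 8.49-fold, Vwf 8.30-fold, Ncf4 8.26-fold and Ctla2a 6.92-fold. Among the lowest, the epidermal genes Calm5, Ivl and Gm94 had 1 transcript each, and Myoz1 also 1. Them5 was 20.9-fold lower (8.97 to 64.5), from 5 transcripts.

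The granulocyte list had 11 genes on the panel, including Csf3r. Against Csf3r-Mac+ cells 7 of its 8 compared genes were higher (23.7% of all genes) and 0 lower, with Hp alone under the 2-fold size. Its median log2 ratio was 3.35, against 0.23 over all compared genes. Against Csf3r+Mac+ cells 7 of 8 were higher (34% of all genes), with a median of 2.08 against 0.17. Against neighbours 4 of 6 were higher (8.15% of all genes), with a median of 2.15 against -0.07, and Hp and Cstdc4 were not. Against all other cells 6 of 10 were higher (34.3% of all genes) and 1, Cstdc4, lower (16%), with a median of 3.62 against 0.85. Against Csf3r+Mac+ cells all 8 compared keratinocyte genes were higher too (34% of all genes), with a median log2 ratio of 1.69. Cstdc4 and Stfa2l1 are on both lists. Against neighbours 1 of 13 keratinocyte genes was higher (8.15% of all genes) and 5 lower (20.1%). These lists were written with earlier results known, and all 4 comparisons share the same Csf3r+Mac- cells.

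In the neutrophil recruitment and G-CSF list, 4 of 7 compared genes were higher against neighbours (8.15% of all genes), namely Cxcr2, Il1r2, Alox5ap and Rac2. The complement receptor gene C5ar1 (1.51), the complement gene C3 (1.47) and the scavenging chemokine receptor gene Ackr3 (0.697) were under 2-fold. The platelet chemokine gene Ppbp had 1 transcript. Against Csf3r-Mac+ cells 4 of 8 were higher (23.7% of all genes) and C3 was 2.04-fold lower. Against Csf3r+Mac+ cells 3 of 7 were higher, near the 34% of all genes, and C5ar1 was 2.86-fold lower. Of the 3 monocyte genes on the panel, Mpeg1, Clec4a3 and Ms4a6c, 2 were higher against neighbours, 3 against all other cells (34.3% of all genes) and 0 against either set with macrophage genes. Of the 6 other macrophage genes, which the rule did not use, 0 of 3 compared were higher against neighbours, 0 of 6 against Csf3r-Mac+ and 0 of 4 against Csf3r+Mac+ cells, and 1 of 6, Ccl9, against all other cells.

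The lists of other cell types give the mixture that these outlines held. The 9 fibroblast genes summed to 140379 CPM in Csf3r+Mac- cells and 123279 CPM in neighbours, and the blood endothelium genes to 34553 and 30495 CPM. The keratinocyte genes summed to 57859 and 144859 CPM. The granulocyte list summed to 115447 and 31879 CPM and the monocyte list to 22900 and 11634 CPM. The T or NK cell list summed to 12331 and 5756 CPM, of which Rac2, also a gene of neutrophils, gave 66 of 91 transcripts, with Cd3d at 7, Cd8a at 7 and Ctla4 at 11. The part of these other cells in the gene ratios was not tested beyond the comparison with neighbours and the place of transcripts over the nucleus.

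The place of transcripts within the outline differed by gene group. Over the nucleus lay 78.6% (73.8 to 82.9%) of the Cxcr2, Mmp9, Il1r2 and Cd300lf transcripts of Csf3r+Mac- cells, 4 genes grouped after their values were seen. For Cxcr2 alone it was 83.8% (75.3 to 90.3%), for Cd300lf 84.8%, for Mmp9 75.8%, for Il1r2 70.5% and for Csf3r 65.0%. Of the Bgn, Lum, Dpt and Mfap4 transcripts 15.6% (13.3 to 18.2%) lay there, of the Car3 and Hp transcripts 18.5%, of the Krt16, Calm4 and Sbsn transcripts 23.5%, and of the Vwf, Plvap, Tie1 and Podxl transcripts 39.3% (33.1 to 45.7%). The monocyte and phagocyte genes Ms4a6c, Clec4a3, Cybb and Ctss lay between, at 54.4% (48.8 to 60.0%). Over all genes the share was 34.4%, against 37.5% in neighbours.

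**Figure D2:**
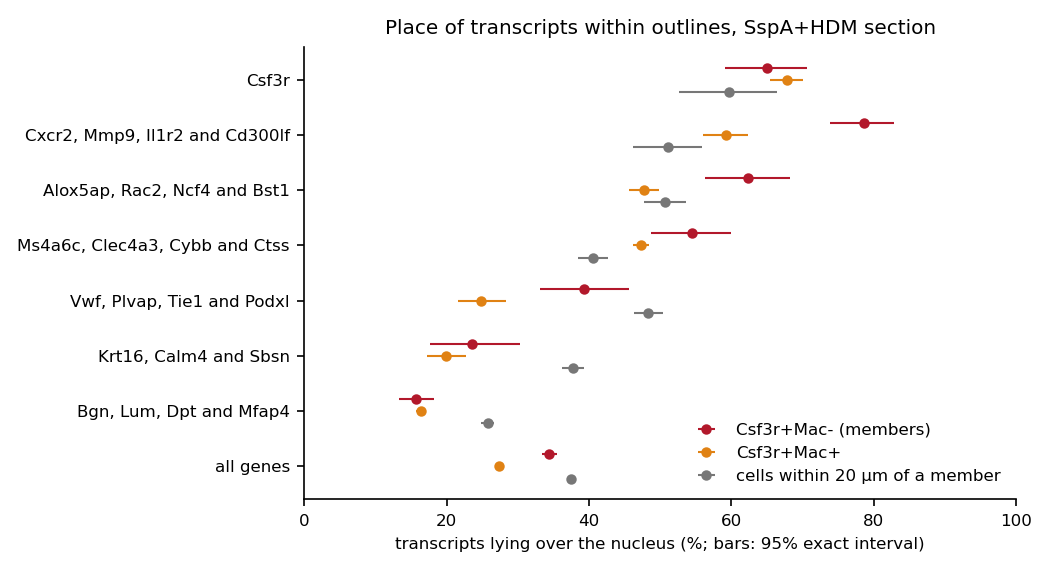
Percent of transcripts lying over the segmented nucleus, by gene group, in Csf3r+Mac- cells (red), Csf3r+Mac+ cells (orange) and cells within 20 µm of a Csf3r+Mac- cell (grey), with 95% exact intervals. The Cxcr2, Mmp9, Il1r2 and Cd300lf group reaches 78.6% in Csf3r+Mac- cells, 59.2% in Csf3r+Mac+ cells and 51.1% in neighbours, while the Bgn group is at 15.6% in Csf3r+Mac- cells and 25.7% in neighbours.

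Counted over the nucleus alone, the gene differences from neighbours were larger for the same leading genes. Csf3r became the most abundant gene, with 184 transcripts, and Cxcr2 ranked 3 with 88. Cxcr2 was 29.7-fold higher (19.9 to 45.1), Cd300lf 17.0-fold (11.1 to 26.2), Mmp9 11.5-fold (7.63 to 17.2), Il1r2 9.25-fold (6.63 to 12.9), Alox5ap 4.51-fold (3.43 to 5.88) and Clec4a3 3.49-fold (2.22 to 5.32). Ms4a6c, under 2-fold over the whole outline, was 2.63-fold higher (1.86 to 3.66), and so were Hp at 2.69-fold (1.96 to 3.62) and the fibroblast gene Pi16 at 3.08-fold (2.04 to 4.55). Bgn had a ratio of 0.946 (0.733 to 1.20).

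The share of cells with at least 1 transcript of a gene moved with depth, so it was also computed after thinning each cell to 40 transcripts, which left out 10 of the 89 cells. Cxcr2 was detected in 50.6% of Csf3r+Mac- cells, 17.5% of Csf3r+Mac+, 2.39% of Csf3r-Mac+ and 4.79% of neighbouring cells, and after thinning in 38.0%, 8.95%, 1.09% and 1.88%. As a background, 0.755% of muscle cells held Cxcr2 at a median of 305 transcripts, and 14.3% of epithelial cells did at a median of 155. Mmp9 was detected in 33.7%, 19.8%, 5.35% and 6.76%, and after thinning in 22.8%, 8.45%, 2.16% and 3.91%. Il1r2 was detected in 48.3%, 21.4%, 15.9% and 14.7%, and after thinning in 31.6%, 9.97%, 6.55% and 9.13%. Cd300lf was detected in 41.6%, 32.7%, 13.1% and 8.11%, and after thinning in 29.1%, 14.5%, 4.99% and 3.48%. For these 4 genes the order of Csf3r+Mac- above Csf3r+Mac+ cells held at both depths. Mmp8 stood at 3.797% (0.790 to 10.7%) after thinning, against 1.59% (0.798 to 2.83%) in neighbours, and those intervals overlapped.

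Csf3r+Mac- cells were not alike. Of the 4 genes Cxcr2, Mmp9, Il1r2 and Cd300lf, 14 cells held all 4, 16 held 3, 15 held 2, 21 held 1 and 23 held none. Median totals ran only from 64.5 to 71 transcripts over these 5 groups. At least 2 of the genes Ms4a6c, Clec4a3 and Cybb were held by 10 of the 23 cells with none of the 4, but by 1 of the 14 cells with all 4. At least 1 of them was held by 11 of the 23 cells with none, 9 of 21 with 1 and 4 of 15 with 2. Of the cells with 3 and with all 4, 7 of 16 and 2 of 14 held at least 1. Ms4a6c encodes a membrane protein of monocytes, Clec4a3 a lectin receptor of patrolling monocytes, and Cybb the catalytic subunit of the phagocyte oxidase. The highest count of these 3 genes in a cell was 13 Ms4a6c transcripts, and 24 of 89 cells held any Ms4a6c.

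**Figure D3:**
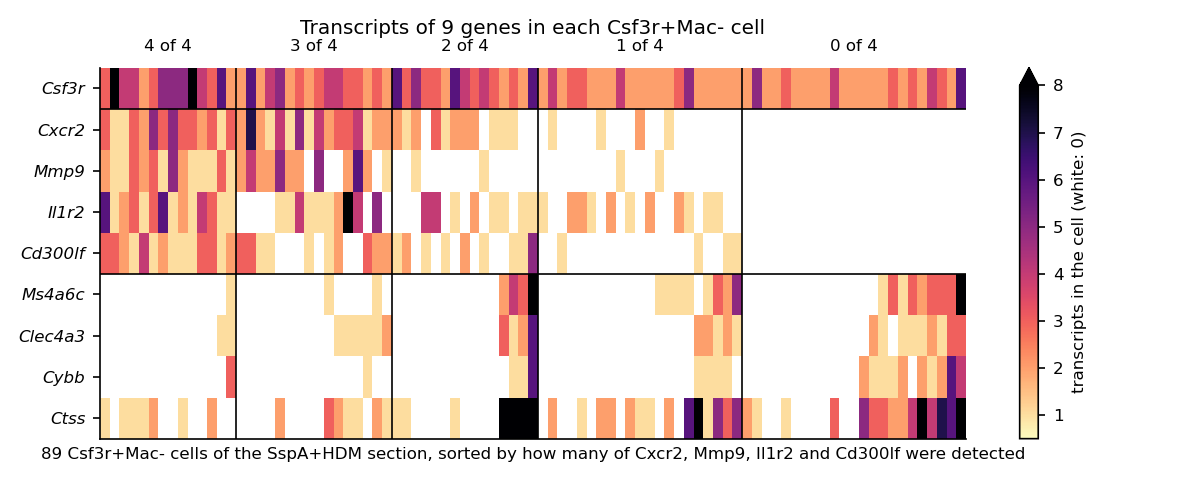
Transcripts of 9 genes (rows) in each of the 89 Csf3r+Mac- cells of the SspA+HDM section (columns), white for 0 and darkest for 8 or more, in blocks by how many of Cxcr2, Mmp9, Il1r2 and Cd300lf were detected (14, 16, 15, 21 and 23 cells from left to right) and, within a block, by the summed Ms4a6c, Clec4a3 and Cybb counts. The sorting places monocyte genes at the right ends of the blocks. At least 1 of Ms4a6c, Clec4a3 and Cybb was held by 2, 7, 4, 9 and 11 cells of the blocks from left to right.

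The 45 cells with Cxcr2 differed from the 44 without it in both directions. Their median totals were 65 and 71 transcripts. Mmp9 had 63 transcripts in cells with Cxcr2 and 3 in those without, a ratio of CPM of 18.8 (6.15 to 93.7). Cd300lf had 54 and 12 (4.03, 2.13 to 8.28), Il1r2 73 and 22 (2.97, 1.82 to 5.03), Stfa2l1 34 and 4 (7.61, 2.72 to 29.5) and Bst1 28 and 5 (5.02, 1.91 to 16.6). The 3 genes of the monocyte list went the other way, by unlike amounts. Ms4a6c had 10 and 57 transcripts, 6.36-fold lower (3.22 to 13.98). Clec4a3 had 13 and 31, a ratio of 0.376 (0.180 to 0.739), and Mpeg1 21 and 37, a ratio of 0.508 (0.283 to 0.891). Of the phagocyte genes, Cybb had 5 and 33, 7.37-fold lower (2.86 to 24.2), and Ctss 48 and 121, a ratio of 0.355. Genes of other cell types moved with the split as well. Of the 4 genes of the adipocyte list, 3 had intervals above 1, with Car3 at 239 and 62 transcripts (3.45, 2.60 to 4.64), Retn at 38 and 7 (4.86, 2.15 to 12.9), and Cd36 at 54 and 19 (2.55, 1.48 to 4.55). The interval of Pck1, at 12 and 3 (3.58, 0.967 to 19.8), held 1. Car3 was detected in 30 of the 89 cells, 18 of them with Cxcr2. The 1 cell described above that held many of the Car3 transcripts was among those with Cxcr2. A counting interval does not cover such unevenness between cells. Hp had a ratio of 2.95 (2.12 to 4.19) and the mural gene Rgs5 of 2.08 (1.32 to 3.36), and their part in the split was not tested. Between the 30 cells with 3 or 4 of the genes and the 23 with none, Ms4a6c had 3 and 27 transcripts and Ctss 21 and 64.

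Across the 89 cells, Spearman's rho of counts was 0.68 for Cxcr2 and Mmp9, and 0.46 for Cxcr2 with Il1r2 and also with Cd300lf. It was 0.65 for Ms4a6c with Clec4a3 and also with Cybb, and 0.62 for Ms4a6c with Ctss. Between the groups it was -0.34 for Cxcr2 and Ms4a6c, -0.35 for Cxcr2 and Cybb and -0.35 for Mmp9 and Ms4a6c, which shared 2 cells. Other pairs were nearer to 0, at -0.19 for Cxcr2 and Clec4a3, -0.06 for Cxcr2 and Mpeg1 and -0.16 for Il1r2 and Ms4a6c. For Cd300lf it was -0.10 with Ms4a6c and 0.06 with Clec4a3. These describe cells of 1 section with counts near 0, which share its library, and carry no p.

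Csf3r+Mac- cells lay in the upper part of the skin, at a median of 38.0% of the strip's depth below the surface (32.3 to 47.0%), against 63.4% for Csf3r-Mac+ and 64.5% for Csf3r+Mac+ cells. Their depth ran from 58.2 to 418 µm with a median of 158 µm, in strips with a median thickness of 346 and 363 µm. With the depth of the strip cut into 3 equal parts, 40, 37 and 12 of the 89 lay in the outer, middle and inner part (44.9, 41.6 and 13.5%). Of the Csf3r-Mac+ cells 14.9, 41.8 and 43.3% lay there. A further set, the 10213 cells with neither Csf3r nor the macrophage genes under the same limits (Csf3r-Mac-), added after the data were seen, lay at 44.3, 43.2 and 12.6%. The depth of Csf3r+Mac- cells was thus near that of cells of the same limits with neither Csf3r nor macrophage transcripts, and differed from that of cells with macrophage genes. Of all cells of the section, 39.98, 40.12 and 19.9% lay in the outer, middle and inner part. These shares lie inside the intervals of Csf3r+Mac- cells (34.4 to 55.9, 31.2 to 52.5 and 7.17 to 22.4%), so depth did not set Csf3r+Mac- cells apart from the section as a whole. The median distance to an epithelial cell was 21.4 µm (17.8 to 27.2), against 13.8 µm for Csf3r-Mac-, 29.6 µm for Csf3r-Mac+ and 35.0 µm for Csf3r+Mac+ cells.

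Csf3r+Mac- cells lay near endothelial cells more often than each of the 3 comparison sets. An endothelial cell was taken as one with at least 8% of transcripts from Vwf, Plvap, Tie1 and Podxl, which 1653 cells were, and cells that met this themselves (12 of the 89) were left out. Of the remaining 77 Csf3r+Mac- cells, 38 had an endothelial cell within 20 µm (49.4%, 37.8 to 60.995%). The share was 30.8% (29.5 to 32.1%) in Csf3r-Mac+, 28.5% (24.9 to 32.3%) in Csf3r+Mac+ and 27.5% (26.6 to 28.4%) in Csf3r-Mac- cells. It was 47.2% in strip 1 and 51.2% in strip 2, and within each strip it was above the other sets, but the intervals met some of theirs. That of strip 1 (30.4 to 64.5%) met those of Csf3r-Mac+ and Csf3r+Mac+ cells, and that of strip 2 (35.1 to 67.1%) met that of Csf3r+Mac+ cells (25.8 to 35.7%). Cells with Cxcr2 stood at 54.1% (36.9 to 70.5%) and those without at 45.0% (29.3 to 61.5%), which overlap. With an endothelial cell taken at 15% of transcripts the share was 36.5%, against 14.2 to 16.3% in the other sets. Around all 89 cells, with the 12 that met the endothelial limit themselves kept in, 16.1% of the 10 nearest cells were endothelial. The share was 6.01 to 6.43% around the other sets, counted in the same way.

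**Figure D4:**
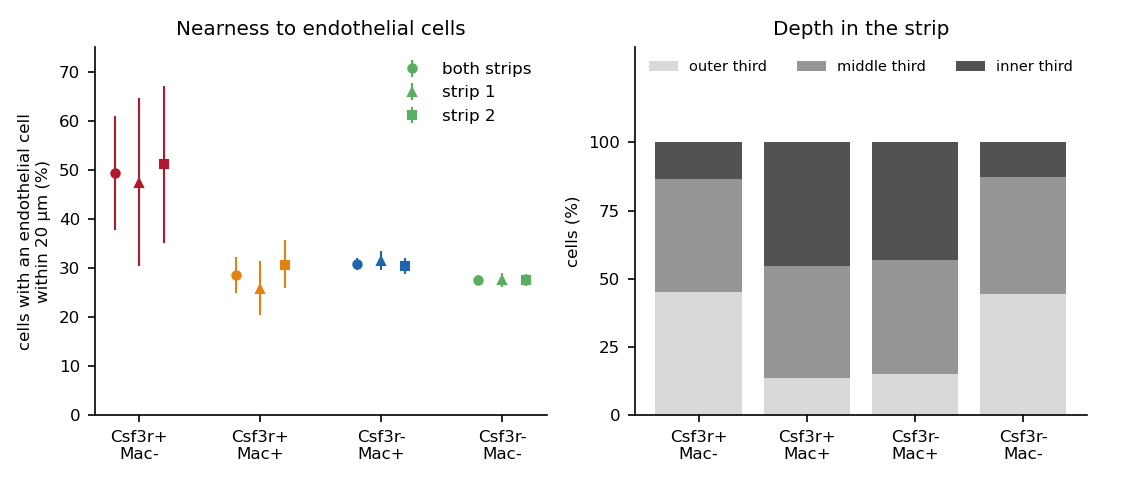
Left, percent of cells with an endothelial cell within 20 µm for 4 cell sets of the SspA+HDM section, over both strips and in each strip, with 95% exact intervals. Right, percent of the same sets in the outer, middle and inner part of the strip's depth. Csf3r+Mac- cells stand at 49.4% on the left against 27.5 to 30.8% in the other sets, and on the right they share the depth of Csf3r-Mac- cells.

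Csf3r+Mac- cells were more frequent around one another than around cells of the other sets, though most of their near cells were of other kinds. They made up 2.81% of the 10 nearest cells around a Csf3r+Mac- cell, against 0.784% around Csf3r+Mac+, 0.338% around Csf3r-Mac+ and 0.303% around Csf3r-Mac- cells. Of the 10 nearest cells around a Csf3r+Mac- cell, 19.3% were Csf3r-Mac+ and 5.39% Csf3r+Mac+. Groups were small. Another Csf3r+Mac- cell lay within 20 µm of 18 of the 89 cells, within 50 µm of 35 and within 100 µm of 57, and the largest group linked by steps of 50 µm held 4 cells. The nearest Csf3r-Mac+ cell, of a set of 5480, lay at a median of 13.2 µm.

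Along the strips the cells were uneven. Left of the midpoint, strip 1 held 7 of 8330 cells (0.0840%, 0.0338 to 0.173%) and strip 2 held 13 of 10155 (0.128%, 0.0682 to 0.219%). Right of it they held 32 of 12035 (0.266%, 0.182 to 0.375%) and 37 of 13761 (0.269%, 0.189 to 0.370%). Cxcr2 was detected in 0 and 2 of the cells on the left and in 17 and 26 on the right. Csf3r+Mac+ cells were also more frequent on the right, at 1.58 and 1.88% against 0.816 and 0.936% of cells. This split was made after the data were seen.

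Granulocyte genes stood higher in the cells of the right side, for some of them within overlapping intervals. Summed over the 20 cells on the left and the 69 on the right, Cxcr2 stood at 4660 CPM (1874 to 9602) and 16672 CPM (13535 to 20318). Mmp9 and Cd300lf stood at 2663 (726 to 6819) and 10548 CPM (8087 to 13522) each, from 4 and 62 transcripts. The 4 Mmp9 transcripts on the left lay in 2 cells. Il1r2 stood at 7324 (3656 to 13104) and 14291 CPM (11399 to 17693). Stfa2l1 stood at 1332 (161 to 4810) and 6125 CPM (4290 to 8479). For both Il1r2 and Stfa2l1 the intervals of the sides overlapped. Csf3r, which the rule used, stood at 34621 and 39299 CPM and Ms4a6c at 7324 and 9527 CPM. Ctss went the other way, at 35952 (27008 to 46910) and 19565 CPM (16152.5 to 23484), and Cybb stood at 6658 and 4764 CPM. In Csf3r+Mac+ cells the granulocyte genes also stood higher on the right, with Cxcr2 at 863 and 2670 CPM, Mmp9 at 1439 and 3007 CPM and Cd300lf at 1919 and 3330 CPM. Over all other cells Mmp9 stood at 184 and 266 CPM, Cd300lf at 187 and 320 CPM and Stfa2l1 at 7942 and 10603 CPM. Cxcr2 ran the other way there, at 1085 and 763 CPM, and in epithelial cells at 1624 and 1116 CPM. Il1r2 did so too, at 1601 and 1204 CPM over all other cells and 1086 and 731 CPM in epithelial cells. Whether the sides differ in how they were treated or cut is not given in the sources used here.

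**Figure D5:**
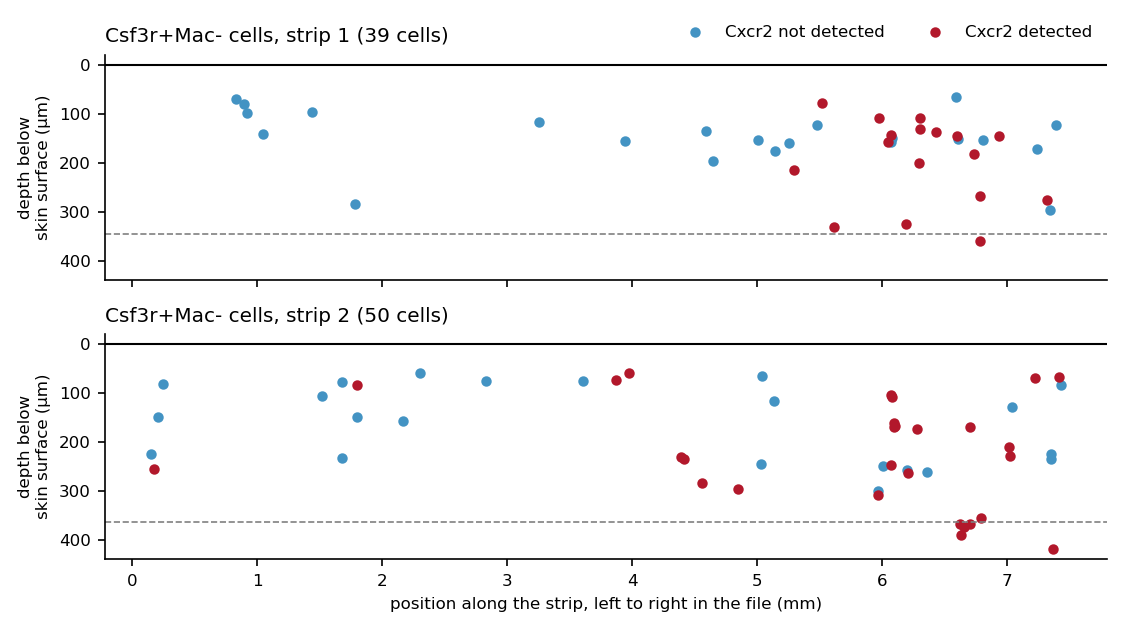
Position of the 89 Csf3r+Mac- cells along each strip of the SspA+HDM section (mm, left to right in the file) and their depth below the skin surface (µm, linear, surface at the top), red where Cxcr2 was detected and blue where it was not; the dashed line is the strip's median thickness. In strip 1 all 17 red cells, and in strip 2 26 of 28, lie right of the midpoint.

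The single Csf3r+Mac- cell of the mock section held 87 transcripts of 37 genes in 86.2 µm². Its counts were 10 of Car3, 8 of Mmp9, 4 of Csf3r, 4 of Alox5ap and 2 each of Cxcr2, Mmp8, Cd300lf and Rac2, with 0 of Il1r2, Ms4a6c, Clec4a3 and Ctss. Muscle genes made up 26.4% of its transcripts, near the limit of 30%, and it lay 7.85 µm from a muscle cell and 82.7 µm from an epithelial cell, at 78.9% of the strip's depth. All but 12 of the SspA+HDM cells lay in the outer or middle part, above that depth. The 12 in the inner part lay on both sides of it, from 67.0 to 99.3%. Of 70 genes with 30 transcripts in the SspA+HDM cells, 2 were higher there (2.86%) and 9 lower (12.9%), which compares 89 cells with 1 cell. A gene with 0 transcripts in the mock cell was set to 3 beside its 87 transcripts, and at that floor it could not be called higher. The numbers of higher and lower genes therefore cannot be weighed against each other. Mmp9 was 10.3-fold lower in SspA+HDM (4.26 to 21.5) and Car3 2.82-fold lower (1.34 to 5.26). Bgn had a ratio of 4.23 and Hp of 2.38, Ndrg1, Alox5ap and Cd300lf were lower, and Dpt, Anxa2 and Laptm5 were under 2-fold; the intervals of these 8 genes reach 1.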

How the data were processed

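For each section the authors deposited decoded transcripts and cell outlines. Per the file headers, each transcript has a quality score (qv), a position, a cell and a 0 or 1 for overlap with a nucleus. In the deposited tables these other values (positions, distances and outline vertices) were taken as µm. The software for decoding and segmentation is not given in the sources used here. Each transcript stayed in its deposited cell, and those of genes, not of control features, with a score of 20 or more were summed per outline. Members, lists and rules were chosen with earlier results of these data known.

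Transcripts were summed per set of cells. The 14 genes used by the rules were left out of counts. A 0 was set to 3 counts and made a bound. Cells linked within 100 µm formed strips, and depth was measured from the epithelial side. Intervals are exact (Poisson, Clopper-Pearson or conditional binomial, 95%). Outlines can take in transcripts of neighbours, and no doublet caller was run. Named genes were the measured granulocyte, recruitment, monocyte, eosinophil and mast cell genes, the 10 highest and 6 lowest ratios of each comparison (5 and 5 against mock) and the 12 highest levels; some of these are not reported here, and others were named after their values were seen. On simulated counts, all genes changed 4-fold were recovered, 12 of 12 higher and 13 of 13 lower against Csf3r-Mac+ cells among 58 genes. The reported comparison with those cells held 266 genes, so the simulation covered only part of them. Recovery of calls that rest on few transcripts, such as those of Cd8a, Mrgpra2a and Myoz2, was not shown by it. Alternatives changed the score, limits, neighbour distance, size, depth, place in the cell and strips. Python 3.11.15, numpy 2.4.6, scipy 1.17.1, pandas 2.3.3 and matplotlib 3.10.9 were used.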

Additional observations from a re-analysis of the deposited data

Results flagged for a closer look

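Outlines with fewer than 20 transcripts entered no comparison, and Csf3r was seen there above the mock level. At least 1 Csf3r transcript lay in 62 of 1815 such outlines of the SspA+HDM section, 3.42% (2.63 to 4.36%), against 1 of 602 in mock, 0.166% (0.00421 to 0.922%). Of these, 7 in SspA+HDM and 0 in mock held 2 or more, and 2 of the 7 held no macrophage transcript. An outline of fewer than 20 transcripts has little room for 2 of Csf3r. These counts therefore do not show how many cells of this kind the minimum total left out.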

How the results depend on the processing

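No named gene called higher or lower changed direction under the alternatives run, while Bgn against neighbours, under 2-fold, went from a ratio of 1.10 to 0.946 over the nucleus. In all, 77 values of the summary results stayed within the spread or 1.5 times the main count, while 31 moved. Of the values of single genes, 446 stayed and 92 moved. The Cxcr2 ratio ran from 43.5 to 91.2 against Csf3r-Mac+ cells and from 15.99 to 29.7 against neighbours, and that of Stfa2l1 against Csf3r-Mac+ cells from 3.14 to 25.7. The SspA+HDM share was 0.108% with at least 3 Csf3r transcripts (48 cells) and 0.120% with Csf3r counted over the nucleus, and the mock share was 0 without strip 2. Against Csf3r-Mac+ cells 61 genes were lower at a 1.5-fold size (39 at 2-fold), and 41 were higher over the nucleus, 37 of them among the 63. Requiring 30 expected transcripts in the chosen cells, added after the data were seen, left fewer genes to compare: 23 higher and 9 lower against Csf3r-Mac+, 34 and 10 against Csf3r+Mac+, 6 lower against neighbours, and 49 and 28 against all other cells. Without strip 2, 34 genes were higher against Csf3r+Mac+ cells (30 of the 55) and 23 lower against neighbours (14 of the 37). Against neighbours 43 were higher within 40 µm, 23 over the nucleus (14 of the 15), and 21 lower with 100 transcripts required. Against mock 2 were lower with 100 transcripts required, and 0 higher and 5 lower over the nucleus. Endothelial nearness was 36.5% at the 15% limit. Thinned detection was 38.0% for Cxcr2, 22.8% for Mmp9, 31.6% for Il1r2, 29.1% for Cd300lf and 3.797% for Mmp8, and with at least 3 Csf3r transcripts 66.7%, 45.8% and 62.5% for the first 3. Between cells with 3 or 4 and none of the 4 granulocyte genes the ratio was 0.0711 for Ms4a6c and 0.210 for Ctss, against 0.157 and 0.355 in the split by Cxcr2. Beyond fewer genes or cells compared, the cause was not tested. No paired analysis was possible because each treatment had 1 section. Detection of genes with few transcripts, such as Mmp8, is limited by a median of 70 transcripts per cell.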
